A study of Mus musculus with 12 samples.

Results

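Foxi1 and 7 genes linked with proton-secreting cells (Ascl3, Atp6v1b1, Atp6v0d2, Atp6v1c2, Atp6v1g3, Car2 and Car12) were followed through a set of 12 Affymetrix expression arrays of mouse prostate. The genes were chosen by name, with Foxi1 selected on its low signal in lateral arrays labelled knockout, so Foxi1's lateral values are given as a description without a test. Each gene was read by the brightest probe set carrying its symbol alone. Of the 8 genes, 7 were measured in this way among 18194 genes in all, through 10 probe sets, and Atp6v1g3 was not analysed here. The arrays held total RNA from ventral or lateral prostate of mice at 16 weeks of age, either wild type or with a Med1 knockout. There were 3 arrays in each of the 4 combinations of lobe and genotype. The labels name no strain, no treatment, and no allele, promoter or Cre for the knockout. Nor do they say that each array stands for its own animal. The p-values therefore cover no more than the spread among these samples, possibly a technical one, and precision is limited by having 3 arrays a group.

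Foxi1 is a forkhead transcription factor known as the regulator of cells that pump acid or base across an epithelium, among them the intercalated cells of the kidney collecting duct, the narrow and clear cells of the epididymis and the ionocytes of the airway. Such cells carry the vacuolar proton pump (V-ATPase), which has a cytosolic ATP-splitting sector and a membrane sector through which protons pass, and several of its subunits have forms restricted to few tissues. Carbonic anhydrases supply the pump with protons by hydrating carbon dioxide, and anion exchangers carry the bicarbonate away. In the male tract, acidification of the lumen by clear cells keeps sperm quiescent, while prostate fluid is the product of luminal secretory cells.

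The start-site windows of 4 genes are shown because the text below sets their signals side by side: Foxi1 and Dmrt2, a transcription factor gene of the doublesex family, were both high in the wild-type lateral arrays alone, while Atp6v1b1 and Ascl3 are those measured genes whose windows held a forkhead match. Each window runs 5′ to 3′ on the gene's strand, with 250 bases before and 50 after the start, from a RefSeq table of assembly GRCm38.p6 that matched 6 of the 8 genes, the others being Atp6v0d2 and Car2. The windows are Foxi1 at chr11:34208040-34208339 (minus strand), Dmrt2 at chr19:25672161-25672460 (plus strand), Atp6v1b1 at chr6:83742767-83743066 (plus strand) and Ascl3 at chr7:109731683-109731982 (minus strand). Capitals mark a match to one of the motifs searched.
Foxi1: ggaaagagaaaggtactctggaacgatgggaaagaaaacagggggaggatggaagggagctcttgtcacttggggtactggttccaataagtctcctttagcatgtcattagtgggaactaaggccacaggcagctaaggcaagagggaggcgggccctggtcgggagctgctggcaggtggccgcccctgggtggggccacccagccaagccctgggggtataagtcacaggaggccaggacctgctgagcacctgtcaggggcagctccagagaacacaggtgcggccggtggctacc
Dmrt2: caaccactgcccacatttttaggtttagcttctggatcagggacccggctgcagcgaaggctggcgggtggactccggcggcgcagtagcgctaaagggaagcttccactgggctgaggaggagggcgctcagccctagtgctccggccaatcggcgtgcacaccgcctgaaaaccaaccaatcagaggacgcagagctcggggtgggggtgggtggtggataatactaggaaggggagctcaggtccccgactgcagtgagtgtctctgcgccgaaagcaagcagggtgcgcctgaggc
Atp6v1b1: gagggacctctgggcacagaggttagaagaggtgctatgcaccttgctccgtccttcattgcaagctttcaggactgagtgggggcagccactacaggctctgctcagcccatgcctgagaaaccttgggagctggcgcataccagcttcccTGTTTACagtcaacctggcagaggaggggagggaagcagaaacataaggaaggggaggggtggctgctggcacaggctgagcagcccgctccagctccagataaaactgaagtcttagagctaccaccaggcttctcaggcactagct
Ascl3: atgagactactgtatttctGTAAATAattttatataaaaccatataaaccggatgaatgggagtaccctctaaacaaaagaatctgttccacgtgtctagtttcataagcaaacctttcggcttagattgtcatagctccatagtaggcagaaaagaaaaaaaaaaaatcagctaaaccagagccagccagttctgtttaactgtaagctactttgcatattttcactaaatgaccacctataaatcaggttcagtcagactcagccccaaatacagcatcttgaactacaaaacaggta
Motifs were searched on both strands: the forkhead core GTAAACA, its variant GTAAATA and the E-box CAGCTG, which do not overlap one another here. The core was present in 3.65% of all 32851 windows of this length in the table, the variant in 3.04% and the E-box in 16.3%. The Atp6v1b1 window held the core on its reverse strand, read as TGTTTAC from position -98. The Ascl3 window held the variant from position -231. None of the motifs matched in the windows of Foxi1, Dmrt2, Atp6v1c2, Atp6v1g3, Car12 or Kit. A match is a description of letters, and neither binding nor a role was measured.

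Values are log2 signals, so a difference of 1 unit is a 2-fold difference. The arrays of a lobe had nearly the same distribution of values and those of different lobes did not (median range of sorted values 0.0493 in ventral prostate, 0.0786 in lateral prostate and 0.388 in both together). The lobes look separately normalized, and levels set across lobes below carry that caution. A group mean is called low signal under 4.73 in ventral and 4.52 in lateral arrays, marks set at the lower quartile of the probe sets. Med1 read 9.48, 9.52 and 9.29 in wild-type and 8.90, 8.99 and 8.68 in knockout ventral arrays, and fell by 0.57 (limma adjusted p 0.0119, SE 0.125, all 3 knockout arrays lower). In lateral arrays it read 8.58, 8.74 and 8.23 in wild type against 8.40, 8.34 and 8.44, a difference of -0.13 (limma adjusted p 0.622) with overlapping arrays. The labels do not give the deleted part of the gene, so whether the probe set lies in it is not known. The lateral group is therefore called the arrays labelled knockout.

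Foxi1 signal stood out in the wild-type lateral prostate. Its values there were 6.43, 6.40 and 6.38, with a mean of 6.40 ± 0.023 (SD, n = 3). In the lateral arrays labelled knockout they were 3.33, 3.75 and 3.26, with a mean of 3.45 ± 0.263 (SD, n = 3), which is low signal. No array of one lateral group came near the other. The difference was -2.96 (SE 0.16), so Foxi1 was at least 7.76-fold lower in the arrays labelled knockout, and over the alternatives that left out 1 array each it lay between -3.11 and -2.87.

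In ventral prostate, Foxi1 signal was low in both genotypes. The wild-type values were 3.0, 3.54 and 3.21, and the knockout values were 3.18, 2.83 and 3.31. The group means were 3.25 ± 0.272 and 3.11 ± 0.25 (SD, n = 3 each), the arrays overlapped, and the difference of -0.14 was smaller than either SD. In order of level, wild-type lateral came first, followed by labelled-knockout lateral, wild-type ventral and knockout ventral. The last 3 groups are neighbours that did not differ beyond their spread, and all lay under the low-signal mark. With all 12 arrays quantile-normalized together the means were 6.59, 3.49, 3.16 and 3.04 in that order.

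**Figure D1:**
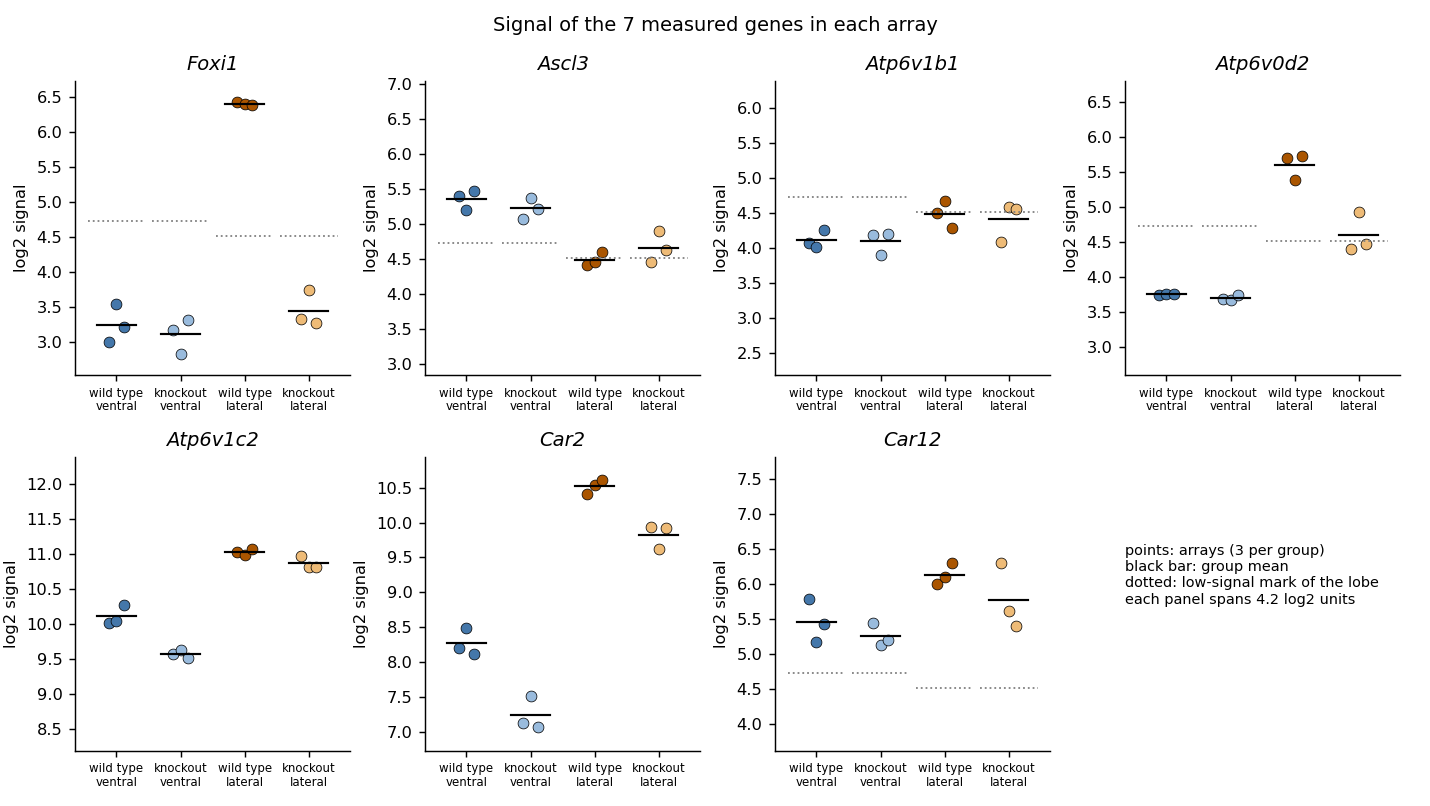
Signal of the 7 measured genes in each array, on a log2 axis that spans the same number of units in every panel; points are arrays, black bars are means of 3 arrays, and dotted lines are the low-signal marks of 4.73 (ventral) and 4.52 (lateral). Foxi1 reads 6.38 to 6.43 in wild-type lateral arrays and at most 3.75 in every other array, while Atp6v1b1 stays near or under the mark throughout.

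The label of proton-secreting cells was set against their markers. Atp6v1b1, which encodes the pump's B1 subunit and defines intercalated and clear cells, was low in all 4 groups. It read 4.08, 4.02 and 4.26 in wild-type and 4.19, 3.90 and 4.21 in knockout ventral arrays. In lateral arrays it read 4.51, 4.68 and 4.29 in wild type and 4.10, 4.59 and 4.56 in the arrays labelled knockout. The genotypes overlapped in both lobes, with differences of -0.018 in ventral and -0.078 in lateral prostate (limma adjusted p 0.955 and 0.813). The 95% intervals ran from -0.32 to 0.29 and from -0.38 to 0.23, on signal too low to carry a fold. Atp6v0a4, the a4 subunit of the same cells, lay between 3.29 and 4.19 in all arrays, also low in every group.

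Ascl3, a basic helix-loop-helix factor found with Foxi1 in ionocytes, did not share the Foxi1 pattern. It read 5.41, 5.21 and 5.48 in wild-type and 5.08, 5.38 and 5.23 in knockout ventral arrays. Its lateral values were 4.42, 4.46 and 4.602 in wild type and 4.47, 4.90 and 4.64 in the arrays labelled knockout. The Ascl3 mean was thus lowest, and just under the mark, in the group where Foxi1 was highest, though the lateral groups overlapped. Neither genotype difference passed, at -0.14 in ventral (limma adjusted p 0.523) and 0.18 in lateral prostate (limma adjusted p 0.454). The markers thus did not settle the label. Atp6v1b1 and Atp6v0a4 were low in every group, and Ascl3 was above the mark in ventral but not in wild-type lateral prostate. Among 17 other measured genes of intercalated cells and ionocytes, 10 were above the mark in wild-type ventral and 11 in wild-type lateral arrays. As a lower quartile, the mark lies under most probe sets by construction, so these counts name no cell type. The genes are called by name below.

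Among the 6 measured genes other than Foxi1, 2 fell in knockout ventral prostate (Car2 and Atp6v1c2) and none rose. In all genes, 3.2% passed lower and 5.88% higher in that comparison. In lateral prostate, 2 of the 6 fell in the arrays labelled knockout (Atp6v0d2 and Car2) and none rose, beside 3.42% of all genes lower and 1.62% higher. At an unadjusted limma p under 0.05 the counts higher were 0 in both lobes as well. The median difference of the 6 was -0.17 in ventral and -0.26 in lateral prostate, against -0.020 and -0.0025 over all genes. Car2 fell in both lobes, Atp6v0d2 passed in lateral arrays and Atp6v1c2 in ventral arrays. In bulk tissue, fewer cells of a type and less RNA per cell cannot be told apart.

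**Figure D2:**
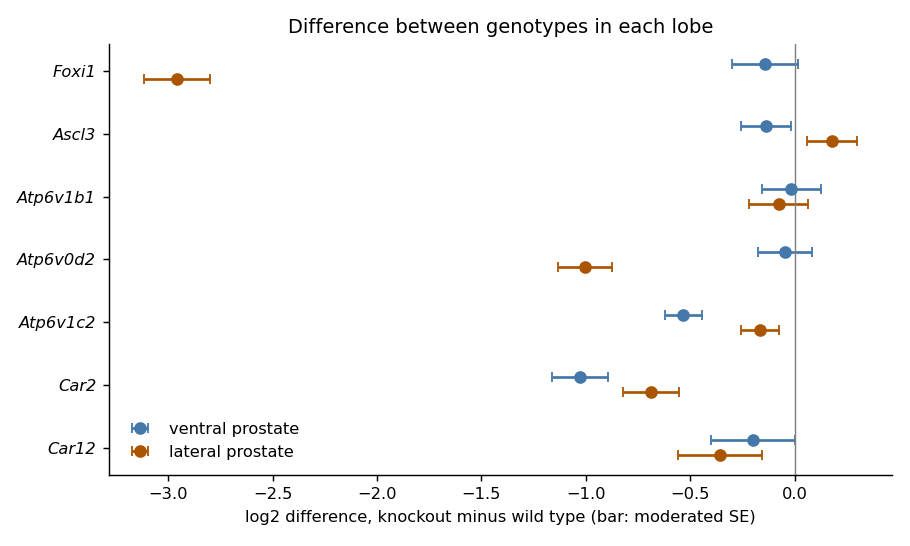
Log2 difference between genotypes (knockout minus wild type, horizontal axis) for each measured gene in ventral (blue) and lateral (orange) prostate, from limma over all 12 arrays; bars are moderated standard errors. Foxi1 lies at -2.96 and Atp6v0d2 at -1.005 in lateral prostate and both lie near 0 in ventral prostate, while Car2 lies at -1.03 in ventral and -0.69 in lateral prostate.

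Among the measured proton pump genes of the set, Atp6v0d2 followed Foxi1 most closely. It encodes the d2 form of a membrane-sector subunit, known from osteoclasts, kidney and epididymis. In wild-type lateral arrays it read 5.71, 5.39 and 5.73, and in those labelled knockout 4.40, 4.93 and 4.47. The lateral groups did not overlap, and Atp6v0d2 fell by 1.005 (SE 0.13, 2.01-fold, limma adjusted p 0.000317) in 3 of 3 arrays.

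Ventral Atp6v0d2 signal was low in both genotypes, at 3.74, 3.76 and 3.75 in wild type and 3.69, 3.68 and 3.75 in the knockout. The ventral difference was -0.049 (limma adjusted p 0.855). The lateral effect minus the ventral effect was -0.96 (SE 0.18, limma adjusted p 0.00503), and Atp6v0d2 was the only one of the 6 genes with a lobe difference that passed. Of all genes, 6.51% passed lower and 2.8% higher in that test. Both ventral groups were low, where a further fall could not have been read.

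A second Atp6v0d2 probe set behaved alike and had a larger difference. It read 5.08, 5.72 and 5.24 in wild-type lateral arrays and 3.50, 3.47 and 3.94, low signal, in those labelled knockout. The difference was -1.71 (SE 0.18, limma adjusted p 0.000117 over all probe sets, lower in 3 of 3 arrays). The estimates of the 2 probe sets differ, and each probe set has its own background, so the size of the fall depends on the probe set.

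Atp6v1c2, the C2 subunit that joins the pump's sectors, was bright in both lobes. It read 10.01, 10.04 and 10.28 in wild-type ventral arrays and 9.58, 9.64 and 9.52 in the knockout. The ventral groups did not overlap, and Atp6v1c2 fell by 0.53 (SE 0.090, 1.45-fold, lower in 3 of 3 arrays, limma adjusted p 0.00223). In lateral prostate it read 11.04, 10.998 and 11.07 in wild type and 10.97, 10.81 and 10.82 in the arrays labelled knockout. There too the arrays did not overlap, but the difference of -0.17 (95% interval -0.36 to 0.026) did not pass (limma adjusted p 0.333). The difference between the lobes' effects of 0.37 (SE 0.13, limma adjusted p 0.0864) did not pass. It did so with all arrays quantile-normalized together (0.43, adjusted p 0.046) and with an intensity trend in the limma variance (adjusted p 0.0436).

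Car2 and Car12 are carbonic anhydrases on either side of the plasma membrane. Car2, the fast cytosolic enzyme of intercalated and clear cells and of many secretory epithelia, fell in both lobes. In ventral arrays it read 8.20, 8.49 and 8.13 in wild type and 7.13, 7.52 and 7.08 in the knockout. Car2 fell by 1.03 (SE 0.13, 2.04-fold, limma adjusted p 0.000325), in 3 of 3 arrays with no overlap.

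In lateral arrays Car2 read 10.41, 10.53 and 10.60 in wild type and 9.93, 9.62 and 9.92 in those labelled knockout. It fell by 0.69 (SE 0.13, 1.61-fold, limma adjusted p 0.00779), again in 3 of 3 arrays with no overlap. The lateral effect minus the ventral effect was 0.34 (SE 0.19, 95% interval -0.067 to 0.75, limma adjusted p 0.279), so the lobes were not shown to differ. Car2 lay at 8.27 in wild-type ventral and 10.52 in wild-type lateral arrays, and at 8.03 and 10.75 after joint normalization.

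Car12, an enzyme with its catalytic part outside the cell, gave no call. It read 5.79, 5.16 and 5.43 in wild-type and 5.44, 5.13 and 5.20 in knockout ventral arrays, a difference of -0.20 (limma adjusted p 0.584). In lateral arrays it read 5.998, 6.10 and 6.30 in wild type and 6.30, 5.62 and 5.40 in those labelled knockout. One of the latter arrays, replicate 1, lay at the top of the wild-type range. The difference of -0.36 (95% interval -0.79 to 0.076, limma adjusted p 0.357) did not pass, but without that array it was -0.62 and did (limma adjusted p 0.0494). Of the other probe sets, one gave 0.047 in lateral prostate and the third was low throughout.

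The other V-ATPase subunits, most of which serve acid organelles in all cells, were counted in the same way. Of 20 measured of 21 listed, 1 rose (Atp6ap1) and 2 fell (Atp6v0a2 and Atp6v0a1) in ventral knockout arrays, with a median difference of -0.0046. In lateral prostate 1 rose (Atp6ap1) and none fell, with a median of 0.0060. The shares of all genes were 5.88% higher and 3.2% lower in ventral and 1.62% higher and 3.42% lower in lateral prostate. Atp6ap1, an accessory subunit, read 10.60, 10.56 and 10.58 in wild-type lateral arrays and 10.99, 10.91 and 11.01 in those labelled knockout, and rose by 0.39 (limma adjusted p 0.0081, higher in 3 of 3 arrays). Its ventral rise was 0.32 (limma adjusted p 0.0168, higher in 3 of 3 arrays). The a-subunit genes Atp6v0a2 and Atp6v0a1 fell there by 0.29 and 0.43 (limma adjusted p 0.0338 and 0.0393, each lower in 3 of 3 arrays).

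The number of ventral V-ATPase calls changed with the arrays used. The count of 3 became 0 without wild-type ventral replicate 1 or with the ventral arrays fitted alone. It became 1 without wild-type ventral replicate 2, wild-type ventral replicate 3 or knockout ventral replicate 3, and 1 with the replicate block. The widely expressed partners of the genes above, Atp6v1b2, Atp6v0d1 and Atp6v1c1, did not pass in lateral prostate, at -0.14, -0.12 and -0.13.

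Of the 14 other carbonic anhydrases, all measured, 1 rose and 1 fell in ventral prostate (median -0.048), beside 5.88% and 3.2% of all genes. None passed in lateral prostate (median -0.057), beside 1.62% of all genes higher and 3.42% lower. At an unadjusted limma p under 0.05, 2 of these anhydrases were higher and 0 lower in lateral prostate. Car3, known from muscle, fat and liver, read 7.47, 8.29 and 7.35 in wild-type and 6.195, 5.72 and 6.36 in knockout ventral arrays. It fell by 1.61 (lower in 3 of 3 arrays, limma adjusted p 0.000391). Car8, a family member without enzyme activity, read 5.84, 6.24 and 5.57 in wild type and 6.91, 6.87 and 6.79 in the knockout. It rose by 0.97 (limma adjusted p 0.00102, higher in 3 of 3 arrays), opposite in sign to Car2.

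Of 17 measured of 21 listed other genes of intercalated cells and ionocytes, none passed in ventral prostate (median -0.042). In lateral prostate 3 fell (median 0.050): Dmrt2, Stap1 and Kit. Beside them, 3.42% of all genes were lower and 1.62% higher in lateral prostate, and 3.2% and 5.88% in ventral prostate. At an unadjusted limma p under 0.05, 1 gene of the list was higher and 4 were lower in ventral prostate. Hepacam2, an intercalated cell surface protein, passed lower without knockout ventral replicate 3, without labelled-knockout lateral replicate 3 and with a variance trend, and P2ry14 passed higher without knockout ventral replicate 2. Dmrt2 read 5.39, 5.63 and 5.26 in wild-type lateral arrays and 3.33, 3.79 and 3.58 in those labelled knockout. It was at least 3.63-fold lower (difference -1.86, SE 0.14, lower in 3 of 3 arrays, limma adjusted p 2.79e-06). In ventral arrays Dmrt2 was low in both genotypes, between 3.15 and 3.57.

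Stap1, a signalling adaptor gene, had the same shape. It read 6.39, 5.71 and 6.21 in wild-type lateral arrays and 4.11, 4.78 and 4.29 in those labelled knockout. It was at least 3.27-fold lower (difference -1.71, SE 0.17, lower in 3 of 3 arrays, limma adjusted p 3.87e-05). Stap1 was low in both ventral groups, between 4.56 and 4.73. Kit, the receptor of stem cell factor, read 4.10, 3.88 and 4.27 against 3.70, 3.47 and 3.44. Both Kit groups were low, so the difference of -0.55 (lower in 3 of 3 arrays, limma adjusted p 0.0192) carries no fold. Kit did not pass without wild-type lateral replicate 1 or 3, or without labelled-knockout lateral replicate 2 or 3.

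The count of 3 lateral genes became 5 without labelled-knockout lateral replicate 1, where Tfcp2l1 (lower) and Cftr (higher, on low signal) were added, and 5 with a variance trend, where Tfcp2l1 and Slc26a4 (higher) were. At an unadjusted limma p under 0.05, 5 genes of the list were lower and 4 higher in lateral prostate. Slc26a4, the anion exchanger pendrin of base-secreting intercalated cells, was bright in ventral prostate at 12.01 and 11.97 in wild type and knockout. In lateral prostate it read 6.46, 6.39 and 7.17 in wild type and 7.32, 7.07 and 7.32 in the arrays labelled knockout. The difference of 0.56, in the other direction, did not pass (limma adjusted p 0.0668). Tfcp2l1, a transcription factor of collecting duct and other epithelia, gave -0.33 in lateral prostate (limma adjusted p 0.0579). Rhcg, an ammonia channel, and Cftr, the chloride channel of ionocytes, were low in all 4 groups.

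Of 14 measured of 18 listed other acid and bicarbonate transport genes, 1 fell in ventral prostate (median -0.034). There 3.2% of all genes passed lower and 5.88% higher. None of the list passed in lateral prostate (median 0.040), beside 3.42% of all genes lower and 1.62% higher. At an unadjusted limma p under 0.05, 3 of the list were higher and 0 lower in lateral prostate. The list gene that fell in ventral prostate was Atp12a, the catalytic subunit of a proton-potassium pump that acidifies without the V-ATPase. It read 8.17, 7.98 and 8.77 in wild-type and 6.11, 5.16 and 6.12 in knockout ventral arrays, and it fell by 2.51 (SE 0.23, lower in 3 of 3 arrays, limma adjusted p 2.37e-05). In lateral prostate Atp12a lay between 10.46 and 10.57 in wild type and between 9.99 and 10.23 in the arrays labelled knockout. That difference of -0.42 did not pass (limma adjusted p 0.347), though it did with the lateral arrays fitted alone.

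**Figure D3:**
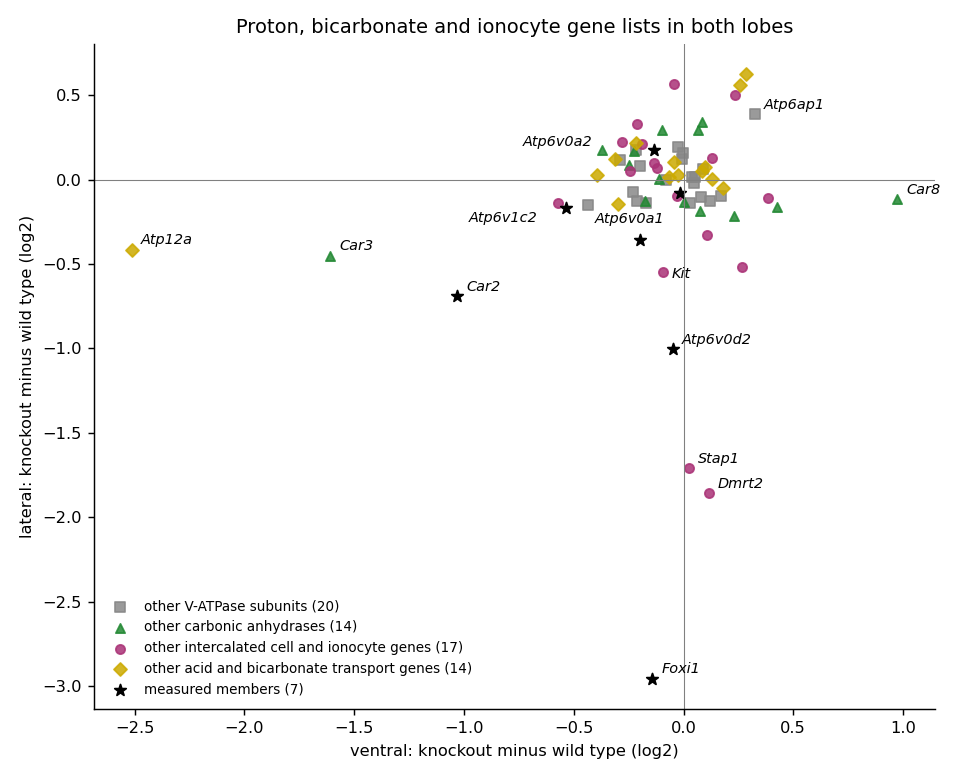
Log2 difference between genotypes in ventral (horizontal axis) and lateral prostate (vertical axis) for the measured genes (stars) and 4 lists of related genes; named are the measured genes except Ascl3, Atp6v1b1 and Car12, and list genes that passed in either lobe. Foxi1, Dmrt2, Stap1 and Atp6v0d2 lie down the vertical axis, Atp12a and Car3 to the left, and most of the other genes near the origin.

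The genes whose signal was most like that of Foxi1 were looked for among 3739 genes with an SD of at least 0.5 over the 12 arrays. Uncharacterized loci and the genes of the set were passed over. The 8 highest Pearson correlations among the rest were those of Emx2 (0.988), Hoxd9 (0.983), Elf5 (0.982), Crabp2 (0.979), Cr2 (0.979), Nefh (0.976), Dmrt2 (0.976) and Cdo1 (0.974). Of the measured genes of the set, Atp6v0d2 was at 0.911, Car2 at 0.741, Atp6v1c2 at 0.675, Car12 at 0.668 and Atp6v1b1 at 0.579, while Ascl3 was at -0.706. The 12 points share 4 groups and the lobes' normalization, and the correlations mostly restate which group was high, so they are a description without p.

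Within the 6 lateral arrays, 226 genes had that SD. With the same loci and genes passed over, the 8 closest were Plau, Bex4, Emx2, Nefh, Defb42, Ces1d, Ces1e and Gprc5b, with correlations from 0.995 to 0.997. Atp6v0d2 was at 0.954 and Car2 at 0.912 there. Foxi1 was selected on the gap between the genotypes in these same arrays, so these correlations too mostly restate that gap. Emx2, a homeobox factor of the urogenital tract, had the highest of the named correlations over the 12 arrays. It read 8.28, 8.22 and 7.96 in wild-type lateral arrays, 4.04, 4.30 and 4.16 in those labelled knockout, and at most 3.91 in ventral arrays. Hoxd9, another homeobox gene, lay between 8.77 and 8.93 in that group and between 6.17 and 7.01 in the other arrays.

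Markers of the seminal vesicle, a gland beside the prostate, moved with Foxi1. The 6 seminal vesicle genes, all measured, had array means of 11.42, 11.41 and 11.50 in wild-type lateral arrays. In those labelled knockout the means were 9.26, 9.09 and 7.73. Of the 6 genes, 4 passed lower, beside 3.42% of all genes, and all 6 were lower at an unadjusted limma p under 0.05. In ventral arrays the means lay between 3.81 and 5.52, highest in wild-type replicate 3. Labelled-knockout lateral replicate 3 stood apart in Svs2, at 8.71 beside 11.89 and 11.99. Foxi1 was low in all 3 of these arrays, where a further fall could not have been read. Wild-type ventral replicate 3 had Svs2 at 7.55. With both arrays left out, the same genes passed: Car2 and Atp6v1c2 in ventral and Atp6v0d2 and Car2 in lateral prostate. The part of seminal vesicle RNA in the lateral differences was not tested.

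**Figure D4:**
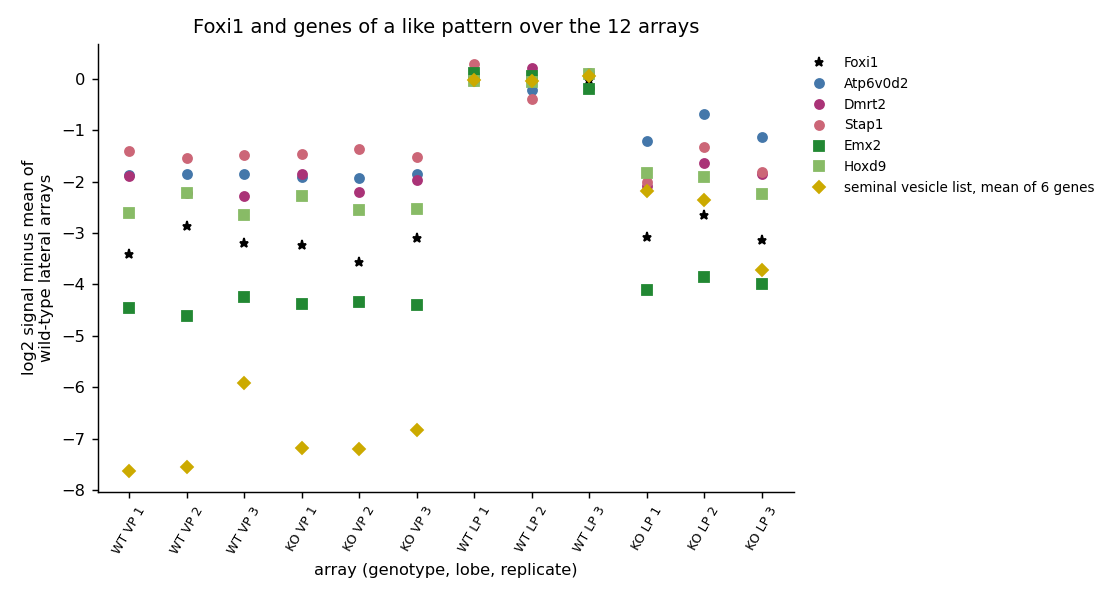
Log2 signal of Foxi1, Atp6v0d2, Dmrt2, Stap1, Emx2 and Hoxd9, and the mean of 6 seminal vesicle genes, in each of the 12 arrays (horizontal axis; WT wild type, KO knockout, VP ventral, LP lateral), each as the difference from its own mean over the wild-type lateral arrays. All are lower in the other 9 arrays, and the seminal vesicle mean is lowest among lateral arrays in labelled-knockout replicate 3, at 7.73 on the log2 scale.

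Other cell types were set beside the differences in the same way. Over all genes, 1.62% passed higher and 3.42% lower in lateral prostate, and 5.88% and 3.2% in ventral prostate. Smooth muscle markers had array means of 12.07 to 12.17 in wild-type lateral arrays and 11.58 to 11.88 in those labelled knockout, with 2 of 6 lower, while 4 of 6 were higher in ventral prostate. Basal cell markers had lateral means of 9.11 to 9.23 in wild type and 8.87 to 8.91 in the arrays labelled knockout, and 1 of 5 (Krt5) fell. Urothelial markers had means of 7.73 to 7.84 and 8.14 to 8.28, with 2 of 5 higher. At an unadjusted limma p under 0.05, lateral prostate had 6 smooth muscle markers lower, 3 basal markers lower and 4 urothelial markers higher. None of these lists had a gene at that p in the other direction there. In ventral prostate 5 smooth muscle markers were higher at that p and 0 lower. Of 4 measured products of prostate secretory cells, 3 fell in ventral prostate, where Car2 and Atp6v1c2 fell (Tgm4 by 2.48, Pbsn by 1.28 and Msmb by 0.86), and none passed in lateral prostate. None of the 7 measured luminal markers passed in either lobe in limma, though 2 higher and 1 lower in ventral and 1 of each in lateral prostate had an unadjusted p under 0.05. Of 9 leukocyte and osteoclast-type markers, Ctsk fell in lateral prostate and Acp5 and Csf1r rose in ventral prostate. None of 10 measured epididymis, 6 measured kidney tubule or 3 measured erythrocyte markers passed in lateral prostate in limma, where 1 epididymis marker and none of the others had an unadjusted p under 0.05. In ventral prostate 1 epididymis marker rose and 2 fell. The part of these cell types in the differences of Atp6v0d2, Atp6v1c2, Car2, Dmrt2 and Stap1 was not tested.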

How the data were processed

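Total RNA was measured on 12 single-colour Affymetrix arrays. Per the submitters' processing notes, the authors used Affymetrix Expression Console and RMA, which corrects background, quantile-normalizes arrays and summarises each probe set, so the deposited values are on a log2 scale. Tool versions: not given in the sources used here.

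Of 45101 probe sets, 34958 had 1 gene symbol, 932 several and 9211 none listed. Symbols were updated through Entrez identifiers (34754 matched, GRCm38.p6), and the brightest probe set per gene was kept. Genotypes were compared within each lobe with limma 3.58.1 in R 4.3.3, with 4 group means over all 12 arrays (8 residual and 5.68 prior degrees of freedom), and the lobes' effects by an interaction contrast. Adjusted p (Benjamini-Hochberg, over all 18194 genes) had to be under 0.05 for a gene to pass. Errors of differences are moderated standard errors. The scripts were tested on simulated data. Replicates of a group correlated at 0.992 to 0.996 over probe sets, and array medians lay at 6.39 to 6.43 in ventral and 6.05 to 6.06 in lateral arrays.

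RMA values carry no detection calls, so the low-signal mark, chosen after the values were seen, stands in for them, and where one group was low the difference is only a lower bound. The genes, lists and markers were chosen with earlier results of these data known. Named are the genes of the set, Med1 and up to 4 genes of smallest p per list and lobe among those that passed. By the same rule, the 8 genes most like Foxi1 by correlation (overall and in lateral arrays, uncharacterized loci passed over) are named. Hepacam2, P2ry14, Slc26a4, Tfcp2l1, Rhcg, Cftr, Atp6v0a4, Atp6v1b2, Atp6v0d1 and Atp6v1c1 fall outside that rule and were chosen after their values were seen, as were single marker genes. Deviations of arrays with the same replicate number correlated at -0.062 to 0.12, which gives no sign of pairing by number. Arrays with different numbers were not compared in this way, so whether both lobes came from the same mice was not tested. The main limma fit treats all arrays as independent. Alternatives covered the arrays fitted, the replicate block, normalization, dim genes, probe set choice, the variance model, the threshold and each array left out. The vas deferens marker was not analysed here.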

Additional observations from a re-analysis of the deposited data

Results flagged for a closer look

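Foxi1 was not tested. For 8 other genes of the set and related lists, the knockout effect differed between lobes by limma's interaction test over all genes. The set held 6 measured genes other than Foxi1, and the lists held 20, 14, 17 and 14. Of all genes, 6.51% passed lower and 2.8% higher, so the count of 8 is near the share over all genes. Values are the lateral minus the ventral log2 effect. Dmrt2 differed by -1.97 (adjusted p 5.27e-05), Stap1 by -1.74 (adjusted p 0.000579) and Atp6v0d2 by -0.96 (adjusted p 0.00503), each from a fall in 3 of 3 lateral arrays beside low signal in both ventral groups. A ventral fall of these genes could not have been read, so for them the test mostly restates the lateral fall. Atp12a differed by 2.096 (adjusted p 0.0012) and Car3 by 1.16 (adjusted p 0.0291), each from a fall in 3 of 3 ventral arrays, beside lateral differences of -0.42 and -0.45 that did not pass. Car8 differed by -1.09 (adjusted p 0.00501), from a rise in 3 of 3 ventral arrays, with lateral signal near the low-signal mark. Atp6v0a2 differed by 0.40 (adjusted p 0.036), from a ventral difference of -0.29, whose call several alternatives lost, beside a lateral difference of 0.11 in the other direction that did not pass. Aqp6, an intracellular water channel of intercalated cells named after its values were seen, differed by 0.40 (adjusted p 0.0497), from differences of -0.19 in ventral and 0.21 in lateral prostate, neither of which passed.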

How the results depend on the processing

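The ventral count of 2 of 6 genes held under every alternative run. The lateral count of 2 became 1 (Car2) with the dimmest 40% of genes left out, where only 2 of the 6 genes were tested, and lay between 2 and 3 with 1 array left out. The lobe count of 1 became 2 with joint quantile normalization and with a variance trend (Atp6v1c2 added), and 0 with the dimmest 40% left out, since Atp6v0d2 was then not tested. With the replicate block the counts were 2, 2 and 1, unchanged. Adjusted p of the lateral Car2 fall reached 0.0474 at most. The signs of differences that did not pass turned: Atp6v1b1 in ventral prostate was 0.019 with joint normalization, 0.051 with wild-type ventral replicate 3 and labelled-knockout lateral replicate 3 both left out (an alternative chosen after seeing the data), and between -0.071 and 0.081 with 1 array left out. With 1 array left out, it lay between -0.18 and 0.082 in lateral prostate and between -0.16 and 0.099 for the lobe difference. The Car12 lobe difference lay between -0.42 and 0.029, and at 0.046 with both arrays left out. Ventral Atp6v0d2 was 0.013 as the mean of its probe sets. Over the 7 measured genes, 426 recomputed differences were counted as kept, 11 turned and 3 newly passed. Kept means the same sign and side of the threshold, but for Foxi1 a move smaller than its largest group SD. Of the recomputed counts, related lists included, 276 stayed within 1.5 times and 49 did not. The remaining limits are low signal in Foxi1, Atp6v1b1 and ventral Atp6v0d2, labelled-knockout lateral Atp6v0d2 values near the mark, and 3 arrays a group.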
